A study of Mus musculus with 4 samples.

Results

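Dividing Apoe-high macrophages were the 155 cells, among 61371 kept cells of 4 single-cell libraries, that joined a high share of Apoe transcripts with transcripts of cell division. A cell was kept with at least 500 UMIs (unique molecular identifiers, 1 per captured transcript) and at most 10% of them from mitochondrially encoded genes. It was called Apoe-high when Apoe took at least 1.5% of its UMIs, when it held at least 1 UMI of Ms4a7, and when Lyve1, F13a1, Cd163 and Cbr2, which mark macrophages of the brain's borders, gave at most 2 UMIs together. It was called dividing when Mki67, Top2a, Cenpf, Birc5, Ube2c, Ccnb2, Pclaf and Rrm2 gave at least 3 UMIs together. Of the 155 members, 78 came from Hevin replicate 1, 77 from Hevin replicate 2 and 0 from either mCherry library. Non-dividing Apoe-high cells, with 0 UMIs of those 8 genes, numbered 7582 and 4567 in the Hevin libraries.

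The cells came from the cortex of wild-type mice at postnatal day 15. In the Hevin group, newborn pups had received an adeno-associated virus that made astrocytes overexpress Hevin, a secreted protein that promotes synapse formation, and in the mCherry group the virus carried a fluorescent control protein; both viruses used the astrocyte promoter GfaABC1D. Myeloid cells were enriched on magnetic columns by CD11b, an integrin on their surface, with inhibitors of transcription and translation present during perfusion and dissociation, and single-cell RNA was read with PIPseq. There were 2 libraries in each group, and the number of animals behind a library is not given by the labels, so p-values measure the spread between these libraries, which may be technical.

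Microglia and other brain macrophages renew themselves by local division. A cell that enters the cycle first switches on genes for copying DNA, under E2F transcription factors, and later genes for condensing chromosomes and building the spindle, many of which carry a CHR element and CCAAT boxes in their promoters. Apoe, the main lipid carrier protein of the brain, and Ms4a7, a membrane protein of the tetraspanning Ms4a family, are high in border macrophages and in macrophages of the developing or injured brain, and low in resting adult microglia.

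The division genes that chose the cells belong to both arms of that programme. Pclaf (a partner of the replication clamp) and Rrm2 (ribonucleotide reductase, small subunit) serve DNA copying. The others act from late S phase to mitosis: Top2a untangles DNA, Cenpf and Birc5 work at centromeres, Ccnb2 is a mitotic cyclin, Ube2c feeds mitotic proteins to the proteasome, and Mki67 coats mitotic chromosomes. Promoters of 4 of them are shown, picked because they hold CHR or E2F letters. They run from 250 bases before to 50 after the start of the gene (RefSeq, GRCm38.p6). Capitals mark the CHR letters TTTGAA or TTCGAA, the CCAAT box, and the E2F letters TTTGGCGC, TTTCCCGC, TTTGCCGC or TTTCGCGC, each on either strand.
Ccnb2 (chr9:70421505-70421804, minus strand): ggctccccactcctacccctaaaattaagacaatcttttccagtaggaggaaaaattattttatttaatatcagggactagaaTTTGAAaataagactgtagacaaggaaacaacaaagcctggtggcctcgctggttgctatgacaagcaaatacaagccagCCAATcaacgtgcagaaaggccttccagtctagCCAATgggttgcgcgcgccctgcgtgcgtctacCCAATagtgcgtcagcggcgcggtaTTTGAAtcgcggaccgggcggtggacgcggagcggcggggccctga
Cenpf (chr1:189688037-189688336, minus strand): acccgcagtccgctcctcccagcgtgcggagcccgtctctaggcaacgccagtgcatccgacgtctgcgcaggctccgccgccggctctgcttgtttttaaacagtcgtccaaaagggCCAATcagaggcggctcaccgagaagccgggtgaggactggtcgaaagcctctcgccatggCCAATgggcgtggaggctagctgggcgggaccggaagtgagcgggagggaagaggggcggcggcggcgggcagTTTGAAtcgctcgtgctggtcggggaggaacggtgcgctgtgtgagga
Top2a (chr11:99024140-99024439, minus strand): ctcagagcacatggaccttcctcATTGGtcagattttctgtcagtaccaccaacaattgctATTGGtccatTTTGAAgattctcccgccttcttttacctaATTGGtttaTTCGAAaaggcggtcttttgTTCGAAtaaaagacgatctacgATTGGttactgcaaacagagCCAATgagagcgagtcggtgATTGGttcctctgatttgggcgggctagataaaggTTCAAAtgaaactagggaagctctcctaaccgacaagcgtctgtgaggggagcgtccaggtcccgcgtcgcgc
Pclaf (chr9:65890073-65890372, plus strand): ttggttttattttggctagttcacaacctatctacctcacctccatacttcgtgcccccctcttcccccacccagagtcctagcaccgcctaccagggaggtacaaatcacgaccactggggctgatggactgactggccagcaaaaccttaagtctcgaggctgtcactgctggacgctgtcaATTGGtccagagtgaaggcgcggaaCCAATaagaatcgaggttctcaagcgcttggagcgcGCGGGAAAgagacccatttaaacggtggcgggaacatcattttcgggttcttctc
Ccnb2, Cenpf and Top2a held CHR letters and CCAAT boxes, and Pclaf held CCAAT boxes and 1 E2F match. Among the 8 division genes of the rule, 5 promoters held CHR letters (62.5%), against 19.2% of all 32851 promoters of this length, and 7 held CCAAT (87.5%), against 37.4%. CHR letters stood in 23 of the 29 promoters found for spindle and kinetochore genes (79.3%) and in 5 of 25 for replication genes (20%). E2F letters stood in 0 of those 29 and in 10 of those 25 (40.0%), against 2.26% of all promoters. CCAAT stood in 21 of those 29 (72.4%) and in 16 of those 25 (64.0%), so it did not set these lists apart. Of the rule's promoters not shown, Birc5 held 0 of the motifs and Rrm2 held 1, a CCAAT box. A match of letters is a description of the sequence and not evidence of binding.

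Before the results, 3 facts of the libraries bear on them. The 4 libraries held 10877 to 19855 barcodes and 49781430 to 67832685 UMIs, and the lowest deposited barcode held 965 UMIs in Hevin replicate 1 and 2178 in Hevin replicate 2. Xist, which silences the second X chromosome in females, was measured at 1.19 CPM (a gene's UMIs scaled to one common library total) in Hevin replicate 1 and 1210 CPM in Hevin replicate 2. At least 1 Xist UMI was held by 1 of the 78 members of Hevin replicate 1 and by 76 of the 77 members of Hevin replicate 2. The pair of Hevin libraries thus differed in Xist. Ddx3y, a gene of the Y chromosome, stood at 131 and 54.7 CPM, so Hevin replicate 2 held transcripts of both genes. The mCherry libraries held both as well, with Xist at 539 and 1045 CPM and Ddx3y at 82.2 and 42.4 CPM. Whether a library mixed animals of both sexes was not tested. Barcodes shared by more than 1 library numbered 21 among kept cells, with 0 members among them.

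Every member held macrophage transcripts. The summed UMIs of 15 core macrophage genes, such as Csf1r, Adgre1 and C1qa, ran from 26 over a median of 142.5 to 450 per member in Hevin replicate 1, and from 53 over 147 to 526 in Hevin replicate 2. Over all members these genes gave 29723 and 30963 CPM in the Hevin replicates, against 31680 and 32956 CPM in non-dividing Apoe-high cells. Summed markers of other cell types were between 2.44 and 151 CPM in members. Monocyte markers summed to 97.5 and 41.5 CPM in members, against 67.5 and 56.7 CPM in non-dividing cells, with Ly6c2, Chil3, Vcan, Hp, Ace and Cd177 among those at 0. Endothelial markers gave 92.6 and 73.2 CPM in members against 125 and 90.7 CPM, and astrocyte markers 134 and 151 CPM against 252 and 151 CPM. Neural progenitor markers were higher in members, at 41.4 and 21.97 CPM against 9.84 and 6.83 CPM, and of 2 tested genes 1 rose, Nes, an intermediate filament gene; their part in the results was not tested. Lists of oligodendrocytes, neurons, neutrophils, lymphocytes, mural cells and fibroblasts, and erythroid cells summed to between 2.44 and 105 CPM in members and between 2.30 and 164 CPM in non-dividing cells. At least 3 UMIs of any of these lists, monocytes included, were held by 20 of the 155 members. Scrublet, a doublet caller, marked 1 member, and 7 and 8 members lay in the top 5% of its scores, but it marked 0.00561% and 0.00922% of the cells of the mCherry libraries and did not work there.

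The 2 transcripts that name the class were lower in its dividing cells; both entered the rule, so these values are a description. The median Apoe share was 2.24% of UMIs in members of Hevin replicate 1 and 2.33% in those of Hevin replicate 2, against 3.52% and 3.65% in non-dividing cells. In summed counts Apoe gave 22991 and 24871 CPM in members against 35462 and 36871 CPM, and Ms4a7 gave 880 and 913 CPM against 1183 and 1253 CPM. Members crowded toward the lower bound: 26 and 25 of them had 1.5% to under 2% Apoe. A bound of 3% kept 8 and 18 members, which is 10.3% and 23.4%, while 68.2% and 69.8% of all Apoe-high cells passed that bound.

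Dividing cells also lay just below the Apoe bound. Both sides were chosen by the same division sum, so nothing is read from their similar spindle transcripts. With the other criteria met, 26 and 15 cells had 1% to under 1.5% Apoe, and their spindle and kinetochore genes gave 3741 and 4073 CPM; members just above the bound had 4006 and 3697 CPM. P2ry12 gave 910 and 403 CPM just below the bound against 654 and 739 CPM just above it. Ms4a7 gave 621 and 963 CPM against 790 and 857 CPM. For both genes the libraries differed in direction. Another 31 and 28 such cells had under 1% Apoe, with spindle and kinetochore genes at 3414 and 1877 CPM. Dividing cells that met the rule but for Ms4a7, with 0 UMIs of it, numbered 11 and 7, and 12 and 17 members held exactly 1 UMI. Dividing cells with 3 or more UMIs of the 4 border genes numbered 10 and 2, and 9 and 5 members held 2. Members with a division sum of exactly 3 numbered 12 and 12, and Apoe-high cells with a sum of 2 numbered 57 and 45.

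Division genes in a cell did not come on evenly with the count. Apoe-high cells with 1 UMI of the 8 genes had spindle and kinetochore transcripts at 119 and 113 CPM, close to the 119 and 106 CPM of cells with 0 UMIs. Cells with 2 UMIs stood at 197 and 139 CPM, those with 3 to 5 at 1014 and 911 CPM, and those with 6 or more at 4276 and 4375 CPM. The lists of replication and nucleotide genes gave 571, 578, 719, 2284 and 1923 CPM over these steps in Hevin replicate 1, and 568, 573, 980, 2206 and 2799 CPM in Hevin replicate 2. Between cells with 2 UMIs and cells with 3 to 5, both sets rose more than at the earlier steps, and the cells with 1 or 2 UMIs, 717 and 463 in number, were left out of both groups below. The median Apoe share ran the other way, at 3.52%, 3.39%, 2.82%, 2.62% and 2.18% in Hevin replicate 1 and at 3.65%, 3.58%, 3.38%, 2.68% and 2.17% in Hevin replicate 2. Median depth ran from 2654 to 5359 UMIs in replicate 1 and from 3515 to 4997 in replicate 2 between the first and the last step, and its part in these values was not tested here.

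**Figure D1:**
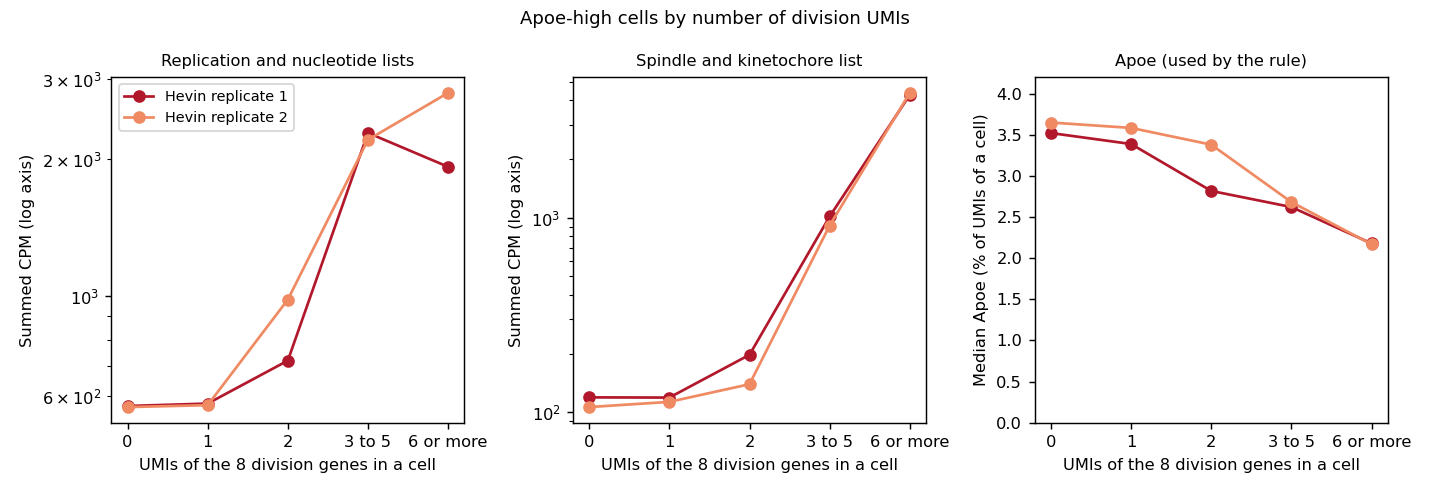
Summed CPM of the replication and nucleotide lists (left, log axis), of the spindle and kinetochore list (middle, log axis) and the median Apoe share of a cell (right, % of UMIs) in Apoe-high cells by their UMIs of the 8 division genes; each line is 1 Hevin library. Spindle transcripts stood near 119 and 106 CPM at 0 UMIs and at 4276 and 4375 CPM at 6 or more.

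Dividing cells were a small share of Apoe-high cells, and the share was of the same order in the P2ry12-positive cells of the same libraries. It was 0.931% in Hevin replicate 1 (78 of 8377 cells, exact 95% binomial interval 0.737% to 1.16%) and 1.51% in Hevin replicate 2 (77 of 5107, 1.19% to 1.88%), a mean of 1.22% ± 0.41 (SD, n = 2). These intervals cover counting error only. In P2ry12-positive Apoe-low cells, which hold the microglial receptor gene P2ry12, under 1% Apoe and 0 UMIs of Ms4a7, it was 1.43% (86 of 5999) and 1.12% (57 of 5086) in the same libraries. The order of the classes was therefore not the same in the 2 libraries: the Apoe-high share was lower by 0.502 percentage points in replicate 1 and higher by 0.387 points in replicate 2. With every cell thinned to 1000 UMIs and a sum of at least 2, the shares were 0.723% and 1.04% in Apoe-high cells and 1.14% and 0.963% in P2ry12-positive Apoe-low cells, and 78 and 114 shallower cells of Hevin replicate 1 were left out. As a background, cells with at least 20 UMIs of neutrophil markers, which as mature cells do not divide, held 0 cells with a sum of 3 or more in the Hevin libraries, 0 of 13 at a median of 1583 UMIs and 0 of 3 at a median of 2848, so that the first allows a share of up to 23.1%. In the mCherry libraries 2 of 12 such cells, at a median of 3309 UMIs, and 2 of 5, at a median of 5600, reached that sum. These counts are too small to set a background for the shares.

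Members occurred in the Hevin libraries, where Apoe-high cells themselves occurred. They made up 0.397% and 0.591% of kept cells in the Hevin libraries and 0 of 17833 and 0 of 10849 in the mCherry libraries, which allows up to 0.0168% and 0.0277% there. With 2 libraries against 2, an exact two-sided permutation test gave p = 0.3333, the smallest it can give. The mCherry libraries had 32 and 22 Apoe-high cells, and 0 dividing cells of 32 and of 22 allow shares of up to 9.38% and 13.6%, so a difference in the dividing share of Apoe-high cells between Hevin and mCherry was not detectable at this depth. In P2ry12-positive Apoe-low cells the dividing share was 1.43% and 1.12% in the Hevin libraries, against 0.865% and 0.919% in the mCherry libraries (exact permutation p = 0.3333, the smallest possible). After thinning it was 1.14% and 0.963% in the Hevin libraries, against 0.680% and 0.684% in the mCherry libraries. The groups did not overlap. Of all kept cells with a division sum of 3 or more, members were 27.3% and 36.3% in the Hevin libraries.

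**Figure D2:**
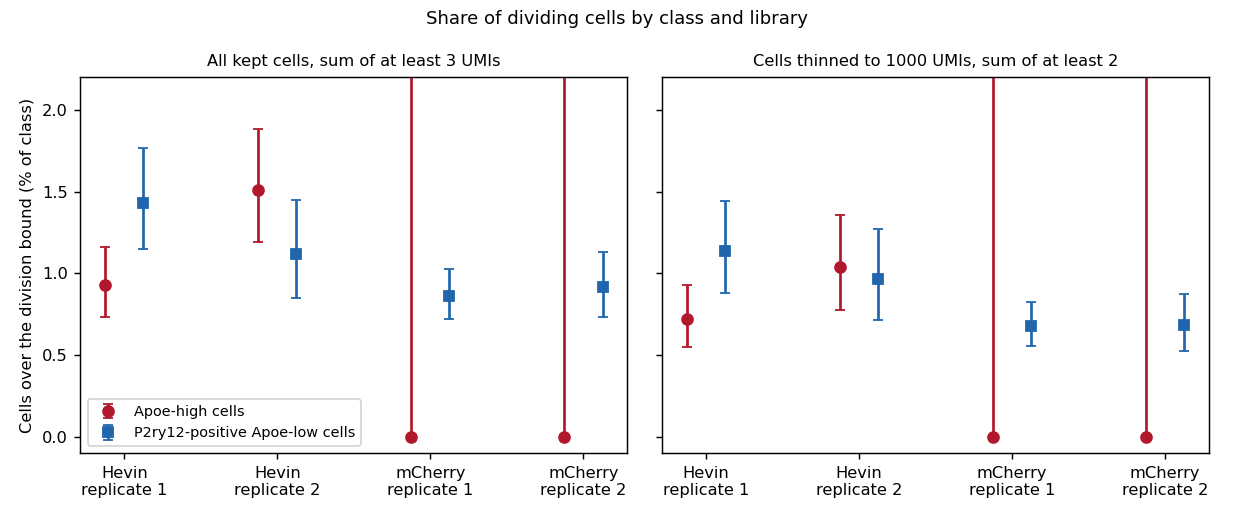
Share of cells over the division bound (% of class) in each library, for Apoe-high cells (circles) and P2ry12-positive Apoe-low cells (squares), with exact 95% intervals; left, all kept cells, right, cells thinned to 1000 UMIs. The Apoe-high shares of 0.931% and 1.51% lie on either side of the P2ry12-positive ones, and the intervals of the mCherry Apoe-high cells, 0 of 32 and 0 of 22, run past the top of the axis.

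Members held transcripts of both arms, from DNA copying to mitosis. The rule sums genes of both arms, so the counts of its 8 genes are a description and nothing is read from them. The sum of the 8 genes ran from 3 over a median of 11 to 60 UMIs in Hevin replicate 1, and from 3 over 9 to 47 in Hevin replicate 2. A sum of 6 or more was held by 54 of 78 and 52 of 77 members, and at least 3 different genes of the 8 by 69 and 68. Birc5 was found in the largest share, 71.8% and 71.4% of members, and Rrm2 in the smallest, 34.6% and 29.9%. Pclaf or Rrm2 UMIs together with UMIs of the 6 later genes were held by 54 and 49 members, the later genes alone by 23 and 26, and Pclaf or Rrm2 alone by 1 and 2. The lists of replication and nucleotide genes, which share no gene with the rule, gave more UMIs than the spindle and kinetochore list in 25 and 26 members and fewer in 53 and 47, with a tie in 0 and 4. Across members the sums of these lists had a Spearman correlation of 0.214 and 0.345; the cells share their library, and a deeper cell has more UMIs of both.

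**Figure D3:**
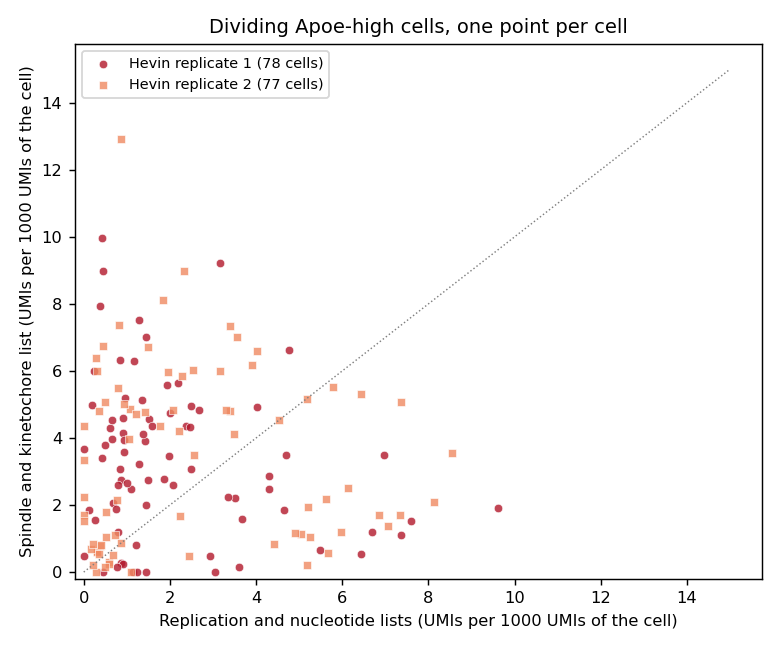
UMIs of the replication and nucleotide lists (x axis) and of the spindle and kinetochore list (y axis) per 1000 UMIs of the cell; each point is 1 of the 78 (circles) or 77 (squares) members, and the dotted line marks equal values. Many points lie near one axis or the other, with 25 and 26 members having more replication than spindle UMIs.

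Dividing and non-dividing Apoe-high cells were then compared over all genes, on counts summed per library, with edgeR's quasi-likelihood test and the library as a block. Among 13705 genes tested, 893 were higher in dividing cells (6.52%) and 731 lower (5.33%) at a Benjamini-Hochberg adjusted p under 0.05, and the median log2 fold change over all of them was −0.12. Without the library as a block the counts were 749 and 403. Higher genes made up 55.0% of the calls, against 65.0% without the block, 75.0% with DESeq2 and 69.7% with an Apoe bound of 3%. The members' sums held 410155 and 409588 UMIs, against 23077246 and 18295832 UMIs of non-dividing cells, and the fit had 1 residual degree of freedom, so most of its error estimate is shared across genes. The 14 genes of the rule were left out of the test. Fold changes below are dividing over non-dividing, on a log2 scale, ± SE. Because cells were chosen by division transcripts, the counts of division lists describe the choice, with the background of 6.52% beside them, and nothing is read from them.

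Genes that copy DNA were higher in members. Of 23 licensing and replication genes, 21 rose and 0 fell, with a median of 2.24. Pcna, the sliding clamp of DNA polymerase, stood at 322 and 325 CPM in dividing cells of Hevin replicates 1 and 2, against 82.2 and 76.3 CPM in non-dividing cells (1.98 ± 0.11). Mcm5, a subunit of the replicative helicase, stood at 12.2 and 46.4 CPM against 4.07 and 4.32 CPM (2.72 ± 0.51), so its level in dividing cells differed between the libraries. Uhrf1, which copies DNA methylation to the new strand, gave 34.1 and 43.9 CPM against 0.910 and 1.20 CPM (5.15 ± 0.54). Of 11 genes of nucleotide synthesis 7 rose, with a median of 1.08. Tk1, thymidine kinase, stood at 200 and 232 CPM against 11.2 and 12.7 CPM (4.13 ± 0.18), and Tyms, thymidylate synthase, at 124 and 164 CPM against 10.7 and 12.5 CPM (3.59 ± 0.21). Cad, Umps, Paics and Gart, of purine and pyrimidine synthesis, did not pass the test.

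Cyclins and their kinases moved in opposite directions. Of 17 genes 11 rose and 2 fell. Ccna2, the S and G2 phase cyclin, stood at 151 and 107 CPM in dividing cells, against 1.34 and 0.765 CPM in non-dividing cells (6.88 ± 0.34). Ccne1, the cyclin of S phase entry, gave 12.2 and 43.9 CPM against 0.433 and 0.437 CPM (5.84 ± 0.76), and Ccnb1, the main mitotic cyclin, 97.5 and 80.6 CPM against 1.04 and 1.86 CPM (5.92 ± 0.40). Their kinase Cdk1 stood at 239 and 215 CPM against 18.2 and 15.7 CPM (3.70 ± 0.18). The 2 that fell were D-type cyclins, which link growth factor signals to cycle entry. Ccnd3 stood at 132 and 142 CPM in dividing cells against 265 and 299 CPM (−1.09 ± 0.12, edgeR adjusted p = 1.76e-05), and Ccnd1 at 95.1 and 85.5 CPM against 160 and 135 CPM (−0.75 ± 0.15, edgeR adjusted p = 0.00333), a call lost with DESeq2 (adjusted p = 0.0996). Cdk4, the kinase they bind, rose, with 200 and 188 CPM against 89.0 and 94.6 CPM (1.03 ± 0.13), and Cdk6, its relative, did not pass, at 36.6 and 68.4 CPM against 62.0 and 81.5 CPM.

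Of 11 inhibitors of the cyclin kinases and pocket proteins, 6 rose and 0 fell. Cdkn1a, which encodes the cell cycle brake p21, stood at 82.9 and 87.9 CPM in dividing cells, against 17.2 and 15.9 CPM in non-dividing cells (2.32 ± 0.23), with UMIs in 24 and 19 members. Cdkn2c gave 68.3 and 80.6 CPM against 12.003 and 9.62 CPM (2.74 ± 0.27), and Cdkn2d 115 and 97.7 CPM against 7.93 and 7.49 CPM (3.74 ± 0.25); both encode inhibitors of Cdk4 and Cdk6. Cdkn2a, another such inhibitor gene, was found in 7 and 2 members, at 17.1 and 4.88 CPM against 0.607 and 0.437 CPM (4.32 ± 1.03). Genes that brake the cycle were thus found in the same sums as those that drive it. Whether the same cells held both was not counted. Of 9 transcription factors of the cycle 3 rose, E2f2, E2f7 and E2f8. E2f8, which represses E2F targets after S phase, stood at 19.5 and 43.9 CPM against 0.997 and 0.929 CPM (4.93 ± 0.62), and E2f1, an activator, did not pass, at 21.9 and 26.9 CPM against 10.8 and 9.73 CPM.

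Spindle and kinetochore genes made up the list with the highest median, 5.57, and all 31 of its tested genes rose. Hmmr, a microtubule-bound protein of the spindle, stood at 139 and 87.9 CPM in dividing cells, against 0.997 and 0.437 CPM in non-dividing cells (7.24 ± 0.38). Aurkb, the kinase of the chromosomal passenger complex that also holds the rule's Birc5, gave 105 and 83.0 CPM against 1.69 and 1.80 CPM (5.70 ± 0.35), and Incenp, another subunit, 127 and 159 CPM against 22.4 and 20.4 CPM (2.69 ± 0.20). Of 10 genes of mitotic exit and tubulin 9 rose, among them Cdc20, which activates the anaphase-promoting complex, at 229 and 134 CPM against 2.30 and 1.75 CPM (6.43 ± 0.28). All 18 chromatin and condensation genes of the list rose, with a median of 3.33. Hmgb2, a DNA-bending protein, was the most abundant of those described here, at 3070 and 2351 CPM in dividing cells, against 169 and 162 CPM in non-dividing cells (3.98 ± 0.08). It was found in 75 of 78 and 76 of 77 members. Stmn1, which takes microtubules apart, stood at 1126 and 1025 CPM against 33.3 and 32.5 CPM (4.98 ± 0.09) and was found in 69 and 70 members, more than any of the 8 genes of the rule.

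Outside the division lists, the 10 genes with the greatest rise, by the same rule as for the falls given later, were Esco2, Lockd, Cenpm, H2ac7, Troap, Mxd3, Pimreg, H2ac12, Aspm and Sgo1, with log2 fold changes from 6.71 to 8.21. Esco2, which acetylates cohesin as DNA is copied, stood at 43.9 and 65.9 CPM in dividing cells, against 0.303 and 0 CPM in non-dividing cells (8.21 ± 0.73). Lockd, a long non-coding RNA gene beside Cdkn1b (chromosome 6, 134929092 to 134956798, plus strand, mm10), stood at 390 and 295 CPM against 2.43 and 1.97 CPM (7.23 ± 0.22), and was found in 50 and 48 members. The histone genes H2ac7 and H2ac12 have near-identical copies between which reads can be split, so their values are uncertain. Sgo1, which protects cohesin at centromeres, gave 102 and 73.2 CPM against 0.953 and 0.656 CPM. Genes here that serve the cycle, such as Esco2 and Sgo1, also describe the choice of cells. Nothing is read from their rise.

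Macrophage genes did not vanish in dividing cells, but several were lower. Of 15 core macrophage genes 7 fell and 0 rose, with a median of −0.25, against 5.33% of all genes lower and a median of −0.12. Adgre1, which encodes F4/80, stood at 329 and 339 CPM in dividing cells, against 520 and 562 CPM in non-dividing cells (−0.74 ± 0.09, edgeR adjusted p = 4.53e-05). Csf1r, the receptor on which macrophage survival rests, gave 1504 and 1660 CPM against 1909 and 2185 CPM (−0.42 ± 0.06, edgeR adjusted p = 0.000356; 0.0513 without the block). The complement gene C1qa did not pass, at 7044 and 8052 CPM against 7433 and 8114 CPM (−0.09 ± 0.06). Without the library as a block, 2 of the 15 fell, and with DESeq2 also 2. Over all 13705 genes, 403 fell without the block and 213 fell with DESeq2. Of 20 genes of homeostatic microglia 8 fell and 1 rose, and 3 fell without the block. P2ry12, found in 63 of 78 and 74 of 77 members, stood at 619 and 772 CPM against 994 and 1059 CPM (−0.61 ± 0.08, edgeR adjusted p = 6.18e-05). Tmem119 did not pass, at 717 and 776 CPM against 675 and 724 CPM. Sall1, the transcription factor of microglia, was low in both states, at 39.0 and 36.6 CPM in dividing and 23.7 and 27.1 CPM in non-dividing Apoe-high cells, against 155 and 145 CPM in dividing P2ry12-positive Apoe-low cells.

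Several genes of border macrophages that the rule did not use were lower in members. Of 10 tested, 6 fell and 0 rose, with a median of −0.49, against 5.33% of all genes lower and a median of −0.12. Stab1, a scavenger receptor (chromosome 14, 31139013 to 31168641, minus strand, mm10), stood at 400 and 461 CPM in dividing cells, against 882 and 946 CPM in non-dividing cells (−1.13 ± 0.08, edgeR adjusted p = 1.42e-07). Maf, a transcription factor of tissue macrophages, gave 673 and 830 CPM against 1212 and 1367 CPM (−0.83 ± 0.07), and Mrc1, the mannose receptor, 514 and 732 CPM against 922 and 1030 CPM (−0.70 ± 0.09). Neither pair of libraries overlapped its counterpart. The share of all genes without overlap was not counted, so nothing is read from this. When non-dividing cells were matched to members on both UMIs and Apoe share, 3 of 9 tested fell, and with DESeq2 3 of 10. Over all genes, 589 of 9146 fell after that matching and 213 of 13705 with DESeq2. Of 17 genes that the earlier look at these data had listed as high in Apoe-high cells, 5 fell and 2 rose; the list was chosen on these samples and is no independent evidence. Ahr, the aryl hydrocarbon receptor, stood at 12.2 and 17.1 CPM in dividing cells, against 32.5 and 41.3 CPM (−1.38 ± 0.35, edgeR adjusted p = 0.0150), Trps1, a GATA-type transcription factor, at 99.96 and 234 CPM against 230 and 292 CPM (−0.70 ± 0.15), and Runx3, a transcription factor, did not pass, at 36.6 and 31.7 CPM against 46.5 and 40.5 CPM. Without the library as a block, 1 of the 17 fell and 0 rose, and neither Ahr (edgeR adjusted p = 0.0551) nor Trps1 (0.165) passed.

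Some genes for clearing dead cells and for growth factor signals were lower, and most of both lists did not pass. Gas6, the ligand that bridges dying cells to the receptors Mertk and Axl (chromosome 8, 13465374 to 13494490, minus strand, mm10), stood at 39.0 and 36.6 CPM in dividing cells, against 150 and 134 CPM in non-dividing cells (−1.96 ± 0.20, edgeR adjusted p = 4.29e-06). Its receptor gene Mertk gave 163 and 247 CPM against 413 and 519 CPM (−1.24 ± 0.11, edgeR adjusted p = 9.65e-07), and Axl 171 and 237 CPM against 250 and 307 CPM (−0.50 ± 0.11, edgeR adjusted p = 0.00726). Axl lost its call with DESeq2 (adjusted p = 0.162) and without the block (edgeR adjusted p = 0.115). Of 14 phagocytosis and complement genes 5 fell and 0 rose, against 5.33% of all genes lower, and 3 fell without the block or with DESeq2. Fcgr3, an Fc receptor gene, was among the 5, at 549 and 476 CPM against 886 and 858 CPM (−0.81 ± 0.08). Of 23 growth factor and cytokine signalling genes 7 fell and 0 rose, with a median of −0.42, and 5 fell without the block or with DESeq2. Over all 13705 genes, 403 fell without the block and 213 with DESeq2. Igf1, a growth factor made by developmental microglia, stood at 46.3 and 80.6 CPM against 135 and 136 CPM (−1.14 ± 0.19), and its receptor gene Igf1r at 34.1 and 39.1 CPM against 64.3 and 69.3 CPM (−0.92 ± 0.23), a call lost with DESeq2 (adjusted p = 0.277).

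Some lysosomal genes and a few of lipid handling were lower. Of 19 lysosomal genes tested 8 fell and 0 rose, with a median of −0.31, against 5.33% of all genes lower. Psap, which makes activators of lipid breakdown, stood at 1334 and 1521 CPM in dividing cells, against 1573 and 1696 CPM in non-dividing cells (−0.24 ± 0.07), a call lost without the block (edgeR adjusted p = 0.232) and with DESeq2 (adjusted p = 0.257). Of the 19, 2 fell without the library as a block or with DESeq2. With DESeq2's size factors in edgeR 4 of them fell, and 3 after matching on UMIs and Apoe. Over all genes, 403 of 13705 fell without the block, 213 with DESeq2, 643 with its size factors and 589 of 9146 after matching. Of 16 genes of the disease-associated microglial state 6 fell and 2 rose: Ctsd, a lysosomal protease, gave 2277 and 2385 CPM against 3544 and 3817 CPM (−0.70 ± 0.06, edgeR adjusted p = 9.96e-07), Trem2, the lipid-sensing receptor, 1065 and 1086 CPM against 1441 and 1448 CPM (−0.47 ± 0.07), whereas the tetraspanin gene Cd9 rose, with 627 and 569 CPM against 359 and 330 CPM (0.75 ± 0.08). Of 25 lipid and cholesterol genes 3 fell and 0 rose, with a median of 0.08. Of Abca1, Abcg1 and Mylip, which fell, Abcg1 lost its call with DESeq2 (adjusted p = 0.2), without the block (edgeR adjusted p = 0.0664) and after matching on UMIs and Apoe (edgeR adjusted p = 0.0552), and Mylip with DESeq2 (adjusted p = 0.105). Abca1, a cholesterol exporter, stood at 297 and 242 CPM against 502 and 526 CPM (−0.98 ± 0.11, edgeR adjusted p = 1.31e-05). Of 24 immediate early and NF-kappa-B response genes 2 fell, Zfp36 and Cd83, a share near the 5.33% of all genes, and 0 fell with DESeq2 or when non-dividing cells were matched on UMIs.

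**Figure D4:**
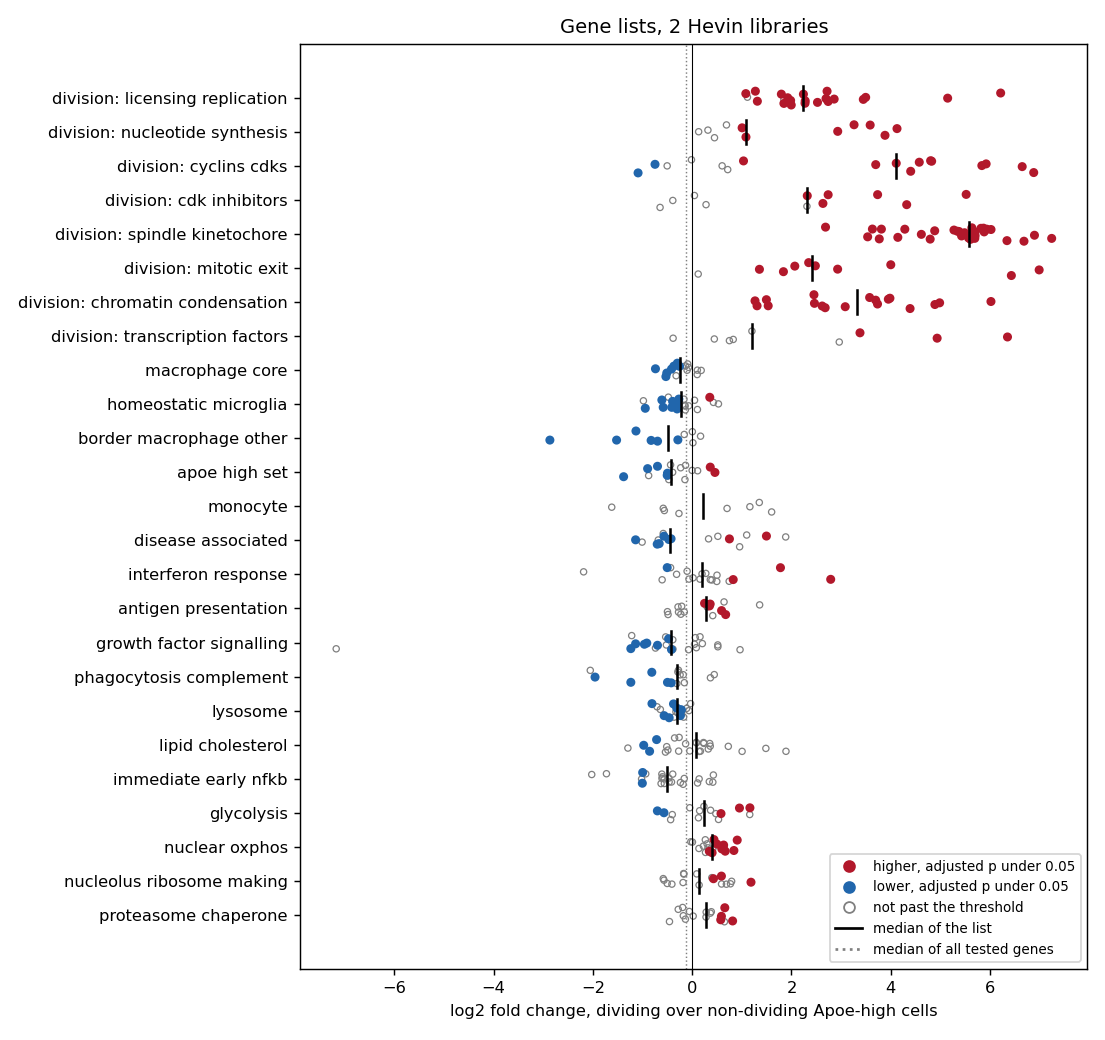
Log2 fold change, dividing over non-dividing Apoe-high cells, of every tested gene of each list (points; filled where the edgeR adjusted p is under 0.05), with the median of the list (black bar) and of all tested genes (dotted line, −0.12). The division lists lie to the right, with a median of 5.57 for spindle and kinetochore genes, and the lists of border macrophages, growth factor signalling and lysosome lie left of 0.

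Several genes of mitochondrial respiration were higher in members, and glycolysis genes moved both ways. Of 20 nuclear genes of oxidative phosphorylation 11 rose and 0 fell, with a median of 0.41, against 6.52% of all genes higher. Cycs, cytochrome c, stood at 176 and 171 CPM in dividing cells, against 94.1 and 84.9 CPM in non-dividing cells (0.91 ± 0.14, edgeR adjusted p = 0.000267). Atp5g3, a subunit of the ATP synthase, gave 346 and 347 CPM against 190 and 185 CPM (0.84 ± 0.10, edgeR adjusted p = 2.23e-05). After matching on UMIs and Apoe, 7 of the 20 rose, against 940 of 9146 genes tested in that setting. Of 15 glycolysis genes 3 rose and 2 fell, against 6.52% and 5.33% of all genes. Gapdh stood at 319 and 271 CPM against 138 and 117 CPM (1.16 ± 0.11, edgeR adjusted p = 1.56e-06), while Hk2, a hexokinase that starts the pathway, stood at 261 and 220 CPM against 365 and 392 CPM (−0.70 ± 0.11, edgeR adjusted p = 0.000493). Of 17 nucleolar genes 3 rose, against 6.52% of all genes. Among them was Nop56, a core protein of the particles that modify ribosomal RNA, at 115 and 127 CPM against 49.6 and 53.2 CPM (1.18 ± 0.17). Of 16 proteasome and chaperone genes 4 rose, against the same 6.52%. Among them was Hsp90aa1, at 290 and 239 CPM against 146 and 145 CPM (0.81 ± 0.12).

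Some class I antigen presentation genes were slightly higher. Of 16 antigen presentation genes 5 rose and 0 fell, against 6.52% and 5.33% of all genes. Those that rose were H2-K1, H2-D1, B2m, Psmb8 and Psmb9. Without the library as a block 2 of the 16 rose, against 749 of 13705 genes. H2-K1, a class I heavy chain, stood at 1417 and 1550 CPM in dividing cells, against 1149 and 1087 CPM in non-dividing cells (0.36 ± 0.07, edgeR adjusted p = 0.00191), and did not pass without the block (edgeR adjusted p = 0.0783), nor did H2-D1 (edgeR adjusted p = 0.0922). Class I heavy chains are similar in sequence, so reads may be split between them. Of 19 interferon response genes 3 rose and 1 fell, against 6.52% and 5.33% of all genes. Without cells holding other cell types' markers 2 rose, against 864 of 13254 genes, and Ifitm3 lost its call (edgeR adjusted p = 0.0982). Ifi27l2a, an interferon-induced gene of mitochondria, stood at 261 and 232 CPM against 66.0 and 73.4 CPM (1.78 ± 0.14, edgeR adjusted p = 2.09e-07) with UMIs in 32 and 29 members, and Bst2, which tethers viruses, fell, at 1524 and 1245 CPM against 1941 and 1855 CPM (−0.50 ± 0.07). The chemokine Cxcl10 rested on few cells: its level was 222 and 51.3 CPM in dividing cells, against 23.6 and 12.8 CPM in non-dividing cells, and 1 member held 83.5% of its UMIs in replicate 1. At least 20 UMIs of the interferon list were held by 15.4% and 7.79% of members, against 5.59% and 9.42% of non-dividing cells, so the libraries differed in direction. At least 5 UMIs of Spp1 and Gpnmb together were held by 0 of 78 and 3 of 77 members, against 72 of 7582 and 45 of 4567 non-dividing cells.

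The 10 genes with the greatest fall, counting genes that averaged 20 CPM or more and moved the same way in both libraries, were Gramd1b, Gas6, 5830444B04Rik, Cmah, Arsk, Nacc2, AW549877, Slc12a2, Ldlrad3 and Slfn5, with log2 fold changes from −2.01 to −1.73. Gramd1b, which carries cholesterol from the cell membrane to the endoplasmic reticulum, stood at 12.2 and 7.32 CPM in dividing cells, against 38.7 and 37.3 CPM in non-dividing cells (−2.01 ± 0.39, edgeR adjusted p = 0.00258). Cmah, which makes a hydroxylated sialic acid in mice, gave 21.9 and 17.1 CPM against 67.4 and 77.3 CPM (−1.94 ± 0.28, edgeR adjusted p = 0.000197). Slc12a2, a sodium, potassium and chloride cotransporter, gave 7.31 and 19.5 CPM against 42.2 and 46.4 CPM (−1.77 ± 0.36, edgeR adjusted p = 0.00382). Except for Gas6, these genes were found in 3 to 8 members of each library, so their levels in dividing cells rest on few UMIs. With DESeq2, Gramd1b (adjusted p = 0.0528), AW549877 (adjusted p = 0.125), Slc12a2 (adjusted p = 0.0506) and Ldlrad3 (adjusted p = 0.0575) lost their calls.

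**Figure D5:**
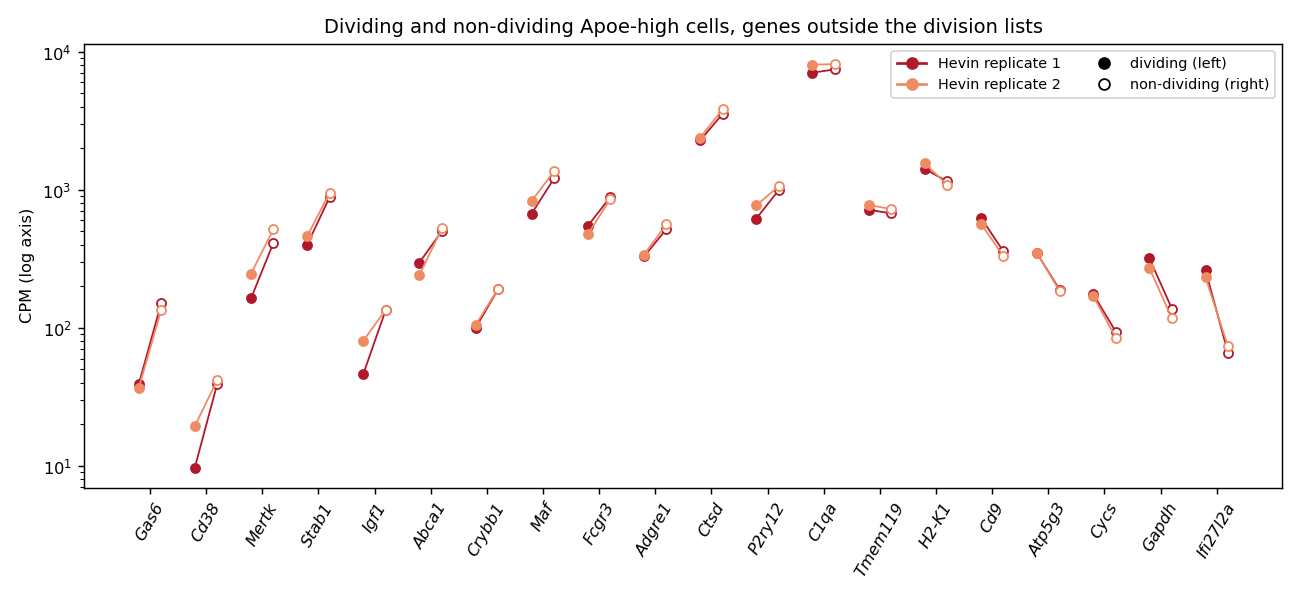
CPM (log axis) of 20 genes outside the division lists in dividing (filled, left) and non-dividing (open, right) Apoe-high cells, with a line for each Hevin library. Gas6, Cd38, Mertk and Stab1 have their dividing points below the non-dividing ones in both libraries, C1qa and Tmem119 lie nearly level, and Cycs, Gapdh and Ifi27l2a have theirs above.

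Whether these differences were particular to Apoe-high cells was asked by testing them against the same differences in P2ry12-positive Apoe-low cells of the same libraries, in 1 fit with class and state. Of 14585 genes tested, 61 had a larger dividing minus non-dividing difference in Apoe-high cells (0.418%) and 58 a smaller one (0.398%). In the 8 division lists, 3 genes passed. Tk1 had a smaller difference in Apoe-high cells (−1.65 ± 0.35, edgeR adjusted p = 0.00110), Stmn1 a larger one (0.80 ± 0.14, edgeR adjusted p = 1.32e-05), and the tubulin gene Tuba1b a larger one. Without cells holding other cell types' markers, Tk1 passed and Stmn1 and Tuba1b did not. None of the 31 spindle and kinetochore genes and none of the 23 replication genes passed by edgeR. The falls of Gas6 (difference −0.69 ± 0.33), Mertk (−0.18 ± 0.19), Stab1 (−0.17 ± 0.19) and Ccnd3 (−0.12 ± 0.21) and the rises of Cdkn1a (−0.21 ± 0.27) and Ifi27l2a (−0.23 ± 0.22) did not differ past the threshold between the classes, with edgeR adjusted p from 0.609 to 0.964. Of other genes described above, Mrc1 (−0.82 ± 0.19, edgeR adjusted p = 0.0033) and Trps1 (−1.35 ± 0.30, edgeR adjusted p = 0.0024) had smaller differences in Apoe-high cells. Cd9 had a larger one (0.67 ± 0.14, edgeR adjusted p = 0.0016). Without cells holding other cell types' markers, Mrc1, Trps1 and Cd9 did not pass. A difference that does not pass is not shown to be absent.

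The 5 genes named for a smaller difference in Apoe-high cells were H2-Eb1, H2-Aa, H2-Ab1 and Cd74, which present antigen on MHC class II, and Eps8, an actin regulator. Cd74 stood at 178 and 78.1 CPM in dividing Apoe-high cells against 189 and 158 CPM in non-dividing ones, and at 2231 and 2841 CPM in dividing P2ry12-positive Apoe-low cells against 791 and 592 CPM in non-dividing ones (difference −2.31 ± 0.17, edgeR adjusted p = 1.65e-37). At least 3 UMIs of monocyte markers were held by 25 of the 143 dividing P2ry12-positive Apoe-low cells, with up to 85 UMIs in a cell, and by 2 of the 155 members, with up to 3. Without cells holding 3 or more UMIs of monocyte or other cell type markers, 29 genes differed in all and Cd74 did not (−0.26, edgeR adjusted p = 0.968). Over all these lists, that bound was met by 38 of the 143 dividing P2ry12-positive Apoe-low cells. The part of monocyte markers alone was not tested.

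Of 19 homeostatic microglial genes, 10 had a larger difference in Apoe-high cells and 0 a smaller one, and 4 of them, Cst3, Nav3, Selplg and Sparc, did so without cells holding other markers. Selplg, which encodes a ligand of selectins, stood at 451 and 459 CPM in dividing against 335 and 354 CPM in non-dividing Apoe-high cells, and at 1174 and 1128 CPM in dividing against 1744 and 2045 CPM in non-dividing P2ry12-positive Apoe-low cells (difference 1.14 ± 0.15, edgeR adjusted p = 3.23e-11). Its level was thus far lower in Apoe-high cells in either state. Axl had a smaller difference in Apoe-high cells in both settings, at 171 and 237 CPM in dividing against 250 and 307 CPM in non-dividing Apoe-high cells, and at 84.6 and 78.0 CPM in dividing against 46.8 and 34.5 CPM in non-dividing P2ry12-positive Apoe-low cells (−1.43 ± 0.27, edgeR adjusted p = 0.000152). Genes named for a larger difference were Ccl5, Scnm1, Cdca7 and Slc8b1, and none of them passed with DESeq2.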

How the data were processed

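Single-cell RNA was measured with PIPseq in 4 libraries of CD11b-selected mouse cortical cells. The deposited values were UMI counts, whole and not normalized, for each gene in each barcode. Per the submitters' processing notes the genome build was mm10. No source used here gives the aligner, counting program, annotation or use of strand. Members, gene lists and tests were chosen with earlier results of these data known.

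Counts of members, of non-dividing Apoe-high cells and of the same states of P2ry12-positive Apoe-low cells were summed per library. edgeR 4.0.16 (R 4.3.3, TMM scaling, filterByExpr, quasi-likelihood test) was fitted to 4 sums, with the library as a block because both sums of a library come from the same cells' preparation, leaving 1 residual degree of freedom. Differences between classes were fitted to 8 sums with 2 residual degrees of freedom. P-values were adjusted by Benjamini-Hochberg over all genes tested, with a threshold of 0.05. The 14 genes of the rule were left out of the tests but not of the library sizes. On simulated counts this fit recovered 36% of 100 genes changed 2-fold and 82% of 100 changed 4-fold among 13719, and the fit of the difference between classes 15% and 61% among 14600.

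Genes were named by rule: the 10 largest and 10 smallest log2 fold changes among genes past the threshold, outside the division lists, averaging 20 CPM or more and with one direction in both libraries, and the 5 largest and 5 smallest differences between classes; other genes are examples of their lists. Some genes that these rules or lists hold are not reported here. Shares carry exact Clopper-Pearson 95% intervals, and a share of 0 allows 3 counts. Scrublet in scanpy 1.11.5 scored doublets, and no cell was removed by it. Promoters came from RefSeq (GRCm38.p6), and gene positions from GENCODE for the same assembly. Alternatives were DESeq2 1.42.0, its size factors, other filters, stricter Apoe and division bounds, cells without high doublet scores, matched non-dividing cells, no block and each library left out. Matching on Apoe and leaving out cells with other cell type markers were chosen after seeing the data.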

Additional observations from a re-analysis of the deposited data

Results flagged for a closer look

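The 9 genes named in the test of the difference between Apoe-high and P2ry12-positive Apoe-low cells are listed because that test passed for each; values are log2 differences, Apoe-high minus P2ry12-positive Apoe-low, of dividing minus non-dividing cells. Ccl5, a chemokine, had a difference of 4.81 ± 1.04 (edgeR adjusted p = 0.00159). It stood at 46.3 and 56.2 CPM in dividing against 9.10 and 10.99 CPM in non-dividing Apoe-high cells of Hevin replicates 1 and 2, but was found in 3 and 4 members, and 1 member held 84.2% of its UMIs in replicate 1. Scnm1, a splicing factor gene, had a difference of 3.51 ± 0.80 (edgeR adjusted p = 0.00332), with 39.0 and 34.2 CPM in dividing against 28.9 and 30.5 CPM in non-dividing Apoe-high cells, and 3.52 and 3.55 CPM in dividing against 33.6 and 31.0 CPM in non-dividing P2ry12-positive Apoe-low cells. Cdca7, a cycle-linked gene, had a difference of 2.00 ± 0.54 (edgeR adjusted p = 0.0329), with 26.8 and 39.1 CPM in dividing against 7.80 and 7.60 CPM in non-dividing Apoe-high cells, and 21.1 and 39.0 CPM in dividing against 29.7 and 25.9 CPM in non-dividing P2ry12-positive Apoe-low cells. Slc8b1 had a difference of 1.86 ± 0.48 (edgeR adjusted p = 0.0189). The Scnm1 level in dividing P2ry12-positive Apoe-low cells rested on 1 UMI in each library. With DESeq2, 7 of the 9 genes did not pass, among them Ccl5 (adjusted p = 0.328), Scnm1 (0.513), Cdca7 (0.671) and Slc8b1 (0.639). At a division sum of at least 6, Scnm1 (edgeR adjusted p = 0.203) and Cdca7 (0.0916) did not pass.

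The MHC class II genes H2-Eb1, H2-Aa, H2-Ab1 and Cd74 had differences of −2.46 ± 0.25, −2.35 ± 0.23, −2.34 ± 0.23 and −2.31 ± 0.17, and Eps8 one of −2.39 ± 0.49. Monocyte markers also differed between the classes: 2 of 155 members and 25 of 143 dividing P2ry12-positive Apoe-low cells held at least 3 UMIs of them. The part of monocyte markers alone in these differences was not tested. Without cells holding 3 or more UMIs of any other cell type's markers, 7 of the 9 genes did not pass, and the class II differences were −1.09, −0.31, −0.80 and −0.26.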

How the results depend on the processing

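Of 893 higher and 731 lower genes, an Apoe bound of 3%, which left 8 and 18 members, gave 92 and 40; DESeq2 gave 213 lower genes, and the fit without the replicate block 403. Without the block, 1144 of the 1624 calls were shared. For the difference between classes, with 119 genes in the report, DESeq2 gave 21 genes, of which 19 were among the 119. A division sum of at least 6 gave 60 (55 of them among the 119) and the 3% bound 19 (13 of them). Matching on UMIs gave 44 (20 of them), and leaving out cells with other cell type markers 29 (23 of them). Matching and the strict bounds use fewer cells. The mean dividing share of Apoe-high cells was 0.322% at the 3% bound. That of P2ry12-positive Apoe-low cells was 0.870% at a sum of 6 and 1.05% after thinning. The share of members among all kept cells was 0.337% at a sum of 6 and 0.0894% at the 3% bound. Leaving out either Hevin library gave ranges of 0.931% to 1.51%, 1.12% to 1.43% and 0.397% to 0.591% for these shares, and leaves no residual degrees of freedom for a count of genes.

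For the 110 genes given in the report or as list examples, 1053 of 1188 values under alternatives with a test kept direction and call, 120 lost the call, 61 of them at the 3% bound, 6 gained it and 9 changed sign. With either Hevin library left out there is no test, and all 110 kept their direction. For the 9 genes of the difference between classes, 53 of 80 kept both and 27 lost the call. At the 3% bound the fold changes that changed sign were Tmem119 at −0.0074, Sall1 at −1.66, Cst7 at −9.38, Ldha at −0.015, Ifitm3 at −0.18 and Ccl5 at −0.52. After matching on UMIs and Apoe, C1qa was 0.027 and Sall1 −0.083, and with no expression filter Tmem119 was −0.0091. The cause was not tested. With no expression filter the median over all genes was −0.70 and at the 3% bound −0.49. The 410155 and 409588 UMIs of the members limit what can be seen of genes at a few CPM.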
